A study of Rattus norvegicus with 17 samples.

Results

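The genes described here are 10 markers of astrocytes and radial glia, read in rat spinal cord neurons collected by laser capture. They are Gfap, Vim, Slc1a3, Slc1a2, S100b, Fabp7, Mlc1, Aqp4, Glul and Aldoc, chosen by name, and each was followed at every array probe set whose only gene symbol was its own. A probe set is a group of short array features that report on 1 transcript. The rule found 17 of the 31099 probe sets, for 10 of the 14217 named genes of the array. Of these 17, 15 were bright enough to be tested, with 1 to 3 for each gene, and each gene is given at its brightest probe set unless another is named.

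Each sample was 1000 neurons that had taken up a retrograde tracer, cut by laser from 10 µm sections of unfixed cord, and its RNA went through 3 rounds of amplification and was read on 1 Affymetrix array. There were 7 arrays of regenerating and 7 of non-regenerating neurons, 1 of each from every one of 7 rats, named MOON265 and MOON266 or MM11, MM13, MM14, MM16 and MM17. A further 3 rats (MM15, MM18 and MM19) gave traced neurons, labelled without axotomy, and the title of the MM15 sample also calls it a high yield replicate. The labels used here give no strain, age or sex for any group and do not say how the axons were cut. All groups share the tracing and the capture.

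Astrocytes are the glia that clear transmitter and ions from the space around neurons and that enlarge their filament network after injury, a state called reactive. Radial glia are the embryonic cells from which astrocytes descend, and they share with them the glutamate transporter Slc1a3, the filament protein Vim and the lipid carrier Fabp7. None of the 10 genes is a textbook marker of neurons, and on these arrays glial transcripts captured with the neurons and expression by the neurons themselves cannot be told apart.

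The mean signal without the lowest and highest 2% was nearly the same on all arrays, 199.2 on the lowest. The median signal was not: it was 32.8 to 60.6 in regenerating and 33.9 to 76.9 in non-regenerating samples, against 63.7 to 76.0 in traced samples, so that every traced array lay above every regenerating one. The ratio of 3′ to 5′ signal of Gapdh, a measure of how far transcripts were copied towards their 5′ end, was 32.3 to 78.7 and 10.0 to 149.97, against 11.7 to 37.4. The same ratio of beta-actin was 7.4 to 46.3 in regenerating and 9.4 to 29.9 in non-regenerating samples, against 11.4 to 51.8 in traced samples. Median signal thus went with the comparison of regenerating with traced samples, and the Gapdh ratio did so in part. For non-regenerating samples both ranges held the traced ones, and the actin ratio was not lower in traced samples. Median signal also went with the animal names. The arrays of MOON265 and MOON266 had 32.8 to 39.0, while every MM array, the traced ones among them, had 45.2 or more. The part of these measures in the differences below was not tested. The non-regenerating MM17 array and the traced MM15 array stood apart, with a median correlation to the rest of 0.847 and 0.821, where the remaining arrays had 0.905 to 0.949. Of 10 neuron markers, 10 were bright enough to be tested, judged by their mean over all arrays. Their summed signal was 16170 to 28444 in regenerating, 14851 to 42702 in non-regenerating and 20198 to 44812 in traced samples. The highest non-regenerating and the highest traced sum were those of MM17 and MM15, the arrays that stood apart, and traced MM18 had 21820. Precision is limited by the small number of arrays.

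Of the 10 genes, Gfap was the one that passed the test between axotomised and traced neurons. Gfap, the intermediate filament protein that defines astrocytes, had signals of 2582.5 to 4201 (median 2917) in regenerating samples and of 2107 to 3943 (median 3312) in non-regenerating samples, against 1340, 1384 and 955 in the traced rats MM18, MM19 and MM15. The lowest axotomised array therefore lay above the highest traced array, and the regenerating and non-regenerating ranges overlapped.

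Gfap rose in regenerating against traced neurons, with means of 3116 ± 621 and 1227 ± 236 (SD, n = 7 and 3). The log2 difference was 1.33 (SE 0.22, 2.51-fold), with a Benjamini-Hochberg adjusted p of 0.026 over all 18625 tested probe sets by limma, a linear model that borrows the spread across probe sets. All differences here are of log2(signal + 16), where 16 is the 25th percentile of all signals, so that changes of dim probe sets are understated. The call ended without regenerating MM13 (1.34, adjusted p = 0.0698), traced MM18 (1.40, adjusted p = 0.112), traced MM19 (1.43, adjusted p = 0.0851) or traced MM15 (1.16, adjusted p = 0.157). Of the arrays that stood apart, traced MM15 is the only one in this comparison.

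In non-regenerating against traced neurons Gfap differed by nearly the same amount, 1.37 (SE 0.24, 2.58-fold, means 3210 ± 679 and 1227 ± 236, SD, n = 7 and 3), and did not pass (adjusted p = 0.0716 by limma). It passed without non-regenerating MM16 (1.46, adjusted p = 0.0392) or without non-regenerating MM17 (1.41, adjusted p = 0.0348). Among MM animals alone the differences were 1.27 (SE 0.20, adjusted p = 0.0268) for regenerating and 1.33 (SE 0.26, adjusted p = 0.263) for non-regenerating samples. In an exact permutation test on Gfap alone, two-sided, p was 0.00833 in each of the comparisons with traced samples, the smallest that 7 against 3 arrays allow. Both comparisons use the same 3 traced arrays, and Gfap was picked as the member with the smallest p, so the exact tests are no separate evidence. More astrocyte material in the captured samples and more Gfap RNA per cell cannot be told apart in such bulk samples.

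Vim, the filament protein of radial glia, reactive astrocytes and many mesenchymal cells, had signals of 248 to 589 (median 476) in regenerating samples and of 241 to 531 (median 393) in non-regenerating samples, against 200.5, 254.5 and 226 in MM18, MM19 and MM15. In each axotomised group 6 of 7 arrays lay above the highest traced array, and the exceptions were regenerating MM14 and non-regenerating MM17. The log2 difference from traced was 0.92 (SE 0.28, adjusted p = 0.0802) for regenerating and 0.70 (SE 0.25, adjusted p = 0.472) for non-regenerating samples, and neither passed limma.

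**Figure D1:**
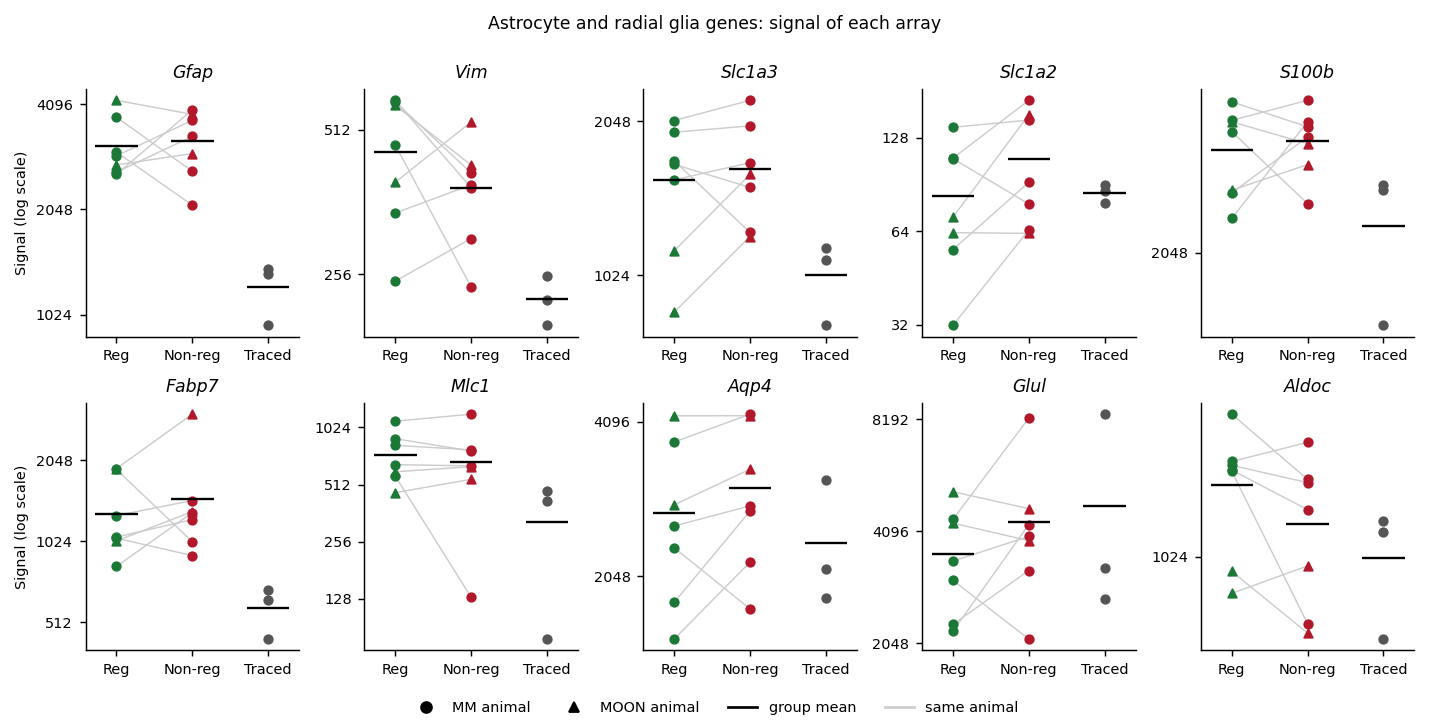
Signal of the 10 genes at their brightest probe set on each of the 17 arrays (log axis), with regenerating (Reg), non-regenerating (Non-reg) and traced samples from left to right. Points are arrays, triangles MOON animals, black bars group means and grey lines join the samples of 1 animal. For Gfap the 14 axotomised arrays lie at 2107 or above and the 3 traced arrays at 1384 or below.

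Fabp7, the brain lipid-binding protein of radial glia and of astrocytes, showed the same separation as Gfap. Its signals were 824.5 to 1905 (median 1060) in regenerating samples and 904 to 3036 (median 1306) in non-regenerating samples, against 619, 673 and 442 in MM18, MM19 and MM15. No axotomised array overlapped the traced arrays, and non-regenerating MOON266 stood above all others. The differences from traced were 1.09 (SE 0.28, 2.13-fold, adjusted p = 0.0684 by limma) for regenerating and 1.23 (SE 0.31, 2.35-fold, adjusted p = 0.472 by limma) for non-regenerating samples, so that neither passed over all probe sets.

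The windows around the annotated starts of Gfap and Fabp7 are shown because these were the members whose axotomised arrays all lay above the traced arrays in both comparisons. Both are given 5′ to 3′ on the strand of the gene, with 250 bases before and 50 from the start, from RefSeq on build GRCr8. The Gfap window is chr10:88361612-88361911 on the minus strand, and its capitals mark the 1 match to TGGGAA, the core of the RBPJ site through which Notch signals, here on the opposite strand. The Fabp7 window is chr20:37669356-37669655 on the plus strand, and its capitals mark the 1 match to the paired site of nuclear factor I.
Gfap: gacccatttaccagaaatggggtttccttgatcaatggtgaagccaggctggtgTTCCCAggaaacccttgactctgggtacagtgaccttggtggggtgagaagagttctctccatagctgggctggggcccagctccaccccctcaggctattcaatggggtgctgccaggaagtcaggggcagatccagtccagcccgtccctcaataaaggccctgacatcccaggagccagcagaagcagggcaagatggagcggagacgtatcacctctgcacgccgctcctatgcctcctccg
Fabp7: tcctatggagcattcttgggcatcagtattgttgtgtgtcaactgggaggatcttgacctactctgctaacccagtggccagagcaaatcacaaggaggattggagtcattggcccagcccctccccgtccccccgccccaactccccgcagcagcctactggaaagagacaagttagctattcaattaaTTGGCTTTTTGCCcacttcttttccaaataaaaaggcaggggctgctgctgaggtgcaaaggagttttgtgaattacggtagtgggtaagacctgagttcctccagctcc

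4 motifs were searched on both strands in the 15 promoter windows that RefSeq lists for the 10 genes. TGGGAA was found in 5 of 15 windows, those of Gfap, Mlc1 and Slc1a3, and in 25.7% of all 33469 windows of the same length. The nuclear factor I site was found in 1 of 15 windows, that of Fabp7, and in 1.2% of all windows. TTCNNNGAA, the STAT site, and TGANTCA, the AP-1 site, were in 0 of 15 windows and in 8.87% and 7.33% of all. Of the 4 motifs, the windows shown hold only the one in capitals, so no matches overlap there. A match describes letters in a window and shows no binding.

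None of the glutamate handling genes passed the test in any comparison. Slc1a3 encodes GLAST, the glutamate transporter shared by astrocytes and radial glia. It had signals of 866 to 2056 (median 1687) in regenerating samples and of 1217 to 2252 (median 1612) in non-regenerating samples, against 1094, 1157.5 and 816 in MM18, MM19 and MM15. All 7 non-regenerating arrays lay above the traced arrays, while regenerating MOON265 and MOON266 lay within them. The differences from traced were 0.57 (SE 0.27, adjusted p = 0.215 by limma) for regenerating and 0.67 (SE 0.24, adjusted p = 0.472 by limma) for non-regenerating samples. Among MM animals alone they were 0.81 (SE 0.19, adjusted p = 0.0764) and 0.75 (SE 0.24, adjusted p = 0.748).

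Slc1a2, which encodes GLT-1, the main glutamate transporter of mature astrocytes, was dim on this array. Its signals were 31.9 to 138 (median 71.0) in regenerating samples and 63.0 to 169 (median 91.9) in non-regenerating samples, against 90.2, 86.4 and 78.9 in MM18, MM19 and MM15. The groups overlapped, with differences from traced of -0.13 (SE 0.33) and 0.23 (SE 0.32).

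Glul encodes glutamine synthetase, which turns the glutamate taken up by astrocytes into glutamine. Its signals were 2211 to 5240 (median 3409) in regenerating samples and 2104 to 8264 (median 3973) in non-regenerating samples, against 3258, 2691 and 8464 in MM18, MM19 and MM15. The highest values belonged to non-regenerating MM17 and traced MM15, the arrays that stood apart. The differences from traced were -0.31 (SE 0.35, adjusted p = 0.648 by limma) for regenerating and -0.06 (SE 0.40, adjusted p = 0.961 by limma) for non-regenerating samples, and became 0.20 and 0.27 without those 2 arrays.

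Neither gene of the astrocyte endfoot, the process that wraps blood vessels, passed the test in any comparison. Mlc1, a membrane protein of endfeet mutated in a leukodystrophy with cysts, had signals of 464 to 1103 (median 652) in regenerating samples and of 131 to 1202 (median 642) in non-regenerating samples, against 420.5, 471 and 78.7 in MM18, MM19 and MM15. The lowest non-regenerating and the lowest traced value were those of the 2 arrays that stood apart. The differences from traced were 1.40 (SE 0.43, adjusted p = 0.0822 by limma) for regenerating and 1.13 (SE 0.58, adjusted p = 0.473 by limma) for non-regenerating samples. Without traced MM15 they were 0.64 (SE 0.30) and 0.37 (SE 0.55), and without both arrays that stood apart the second was 0.71 (SE 0.27).

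Aqp4, the water channel of astrocyte endfeet, had signals of 1544 to 4209 (median 2566) in regenerating samples and of 1769 to 4241 (median 2809) in non-regenerating samples, against 1860, 2114 and 3161 in MM18, MM19 and MM15. The groups overlapped widely, with differences from traced of 0.15 (SE 0.30) and 0.33 (SE 0.29), neither past the threshold in limma.

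The remaining members are soluble proteins of the astrocyte cytoplasm. S100b, a calcium-binding protein, had signals of 2364 to 3844 (median 3393) in regenerating samples and of 2513 to 3867 (median 3319) in non-regenerating samples, against 2714, 2655 and 1513 in MM18, MM19 and MM15. Of the axotomised arrays, 4 of 7 regenerating and 6 of 7 non-regenerating ones lay above the highest traced array. The differences from traced were 0.48 (SE 0.24) and 0.54 (SE 0.23), neither past the threshold in limma, and were 0.20 and 0.27 without traced MM15.

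Aldoc, the aldolase of glycolysis that the brain uses mainly in astrocytes, had signals of 869.5 to 1936.5 (median 1509) in regenerating samples and of 728 to 1707 (median 1264) in non-regenerating samples, against 1142, 1201 and 709 in MM18, MM19 and MM15. The groups overlapped, with differences from traced of 0.46 (SE 0.27) and 0.19 (SE 0.29). The MOON animals held the lowest regenerating values of Aldoc, 869.5 and 959, and the lowest values of non-regenerating samples were those of MOON266 (728), MM17 (759) and MOON265 (983).

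**Figure D2:**
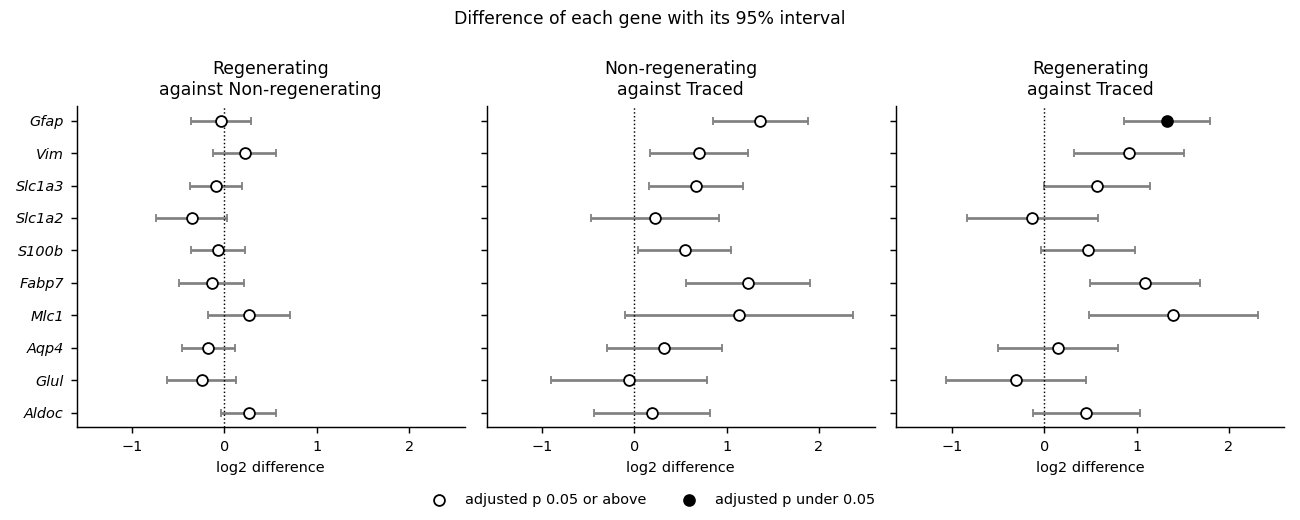
Log2 difference of each gene (brightest probe set) with its 95% interval from limma, in regenerating against non-regenerating, non-regenerating against traced and regenerating against traced samples. A filled point marks an adjusted p under 0.05, which was reached by Gfap in regenerating against traced samples (1.33), and the intervals of Gfap, Vim and Fabp7 lie above 0 in both comparisons with traced samples.

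The 10 genes were chosen with earlier results of these data known, so counts over them beside those of all probe sets are no separate evidence. Counted over the 10 genes, 1 was called in regenerating against traced samples, where 0.215% of all tested probe sets were called, 0.156% as higher. Of the 10, 8 had a difference above 0, as did 40.8% of all probe sets, and the median was 0.525, against -0.125 for all probe sets. At an unadjusted p under 0.05 by limma, 4 were higher (Gfap, Vim, Fabp7 and Mlc1) and 0 lower, where 5.98% and 17.6% of all were. Axotomised and traced arrays did not overlap for 2 members, Gfap and Fabp7, while 2.35% of all probe sets were separated in that direction.

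In non-regenerating against traced samples 0 of the 10 were called by limma, where 0.0430% of all tested probe sets were. A difference above 0 was found for 9, as for 38.8% of all probe sets, and the median was 0.605, against -0.119 for all. At an unadjusted p under 0.05 by limma, 5 were higher (Gfap, Vim, Slc1a3, S100b and Fabp7) and 0 lower, where 2.68% and 7.61% of all were. The arrays did not overlap for 3 members, Gfap, Slc1a3 and Fabp7, while 1.10% of all probe sets were separated in that direction. The comparisons with traced samples share their 3 traced arrays and are given side by side for that reason.

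Regenerating and non-regenerating neurons were set against each other inside each of the 7 animals, the contrast the study drew to find genes tied to regeneration. None of the 10 astrocyte genes was called by limma, nor was any of them past an unadjusted p under 0.05 at its brightest probe set, where 0.0161% of all tested probe sets were called and 4.26% as higher and 2.81% as lower passed unadjusted. Of the 15 tested probe sets, 1 did, the dimmer one of Slc1a2 (higher, unadjusted p = 0.0396 by limma). The differences lay between -0.36 and 0.27, with a median of -0.08, against -0.001 for all probe sets, and 3 of 10 were above 0, as were 49.8% of all.

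Gfap differed by -0.03 between the regenerating and non-regenerating samples of an animal, with a 95% interval of -0.36 to 0.29. Its single animals ran both ways, with -0.34, -0.33, -0.61 and -0.11 in MM11, MM13, MM14 and MOON265, and 0.50, 0.51 and 0.13 in MM16, MM17 and MOON266. Fabp7 differed by -0.14 (interval -0.49 to 0.21) and was higher in regenerating samples of 2 of 7 animals. Vim differed by 0.22 (interval -0.13 to 0.56) and was higher in 4 of 7. A p that misses the threshold does not show that the groups were alike.

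Over the brightest probe sets, the largest difference within animals was that of Slc1a2, at -0.36 (SE 0.18, interval -0.74 to 0.03, adjusted p = 0.697 by limma), with regenerating samples higher in 2 of 7 animals. The exact sign-flip test, two-sided, gave p = 0.0938 for it, where 7 pairs cannot go below 0.0156. Aldoc differed by 0.26 (SE 0.14) and was higher in 5 of 7 animals, and Aqp4 by -0.18 (SE 0.14) and was higher in 1 of 7. Slc1a3, S100b and Glul differed by -0.09, -0.07 and -0.25. Mlc1 differed by 0.27 (SE 0.21), a value made by MM17, where the regenerating signal was 567 and the non-regenerating signal 131. Its difference was 1.99 in MM17 and between -0.23 and 0.21 in the other animals, and without MM17 it was -0.02.

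**Figure D3:**
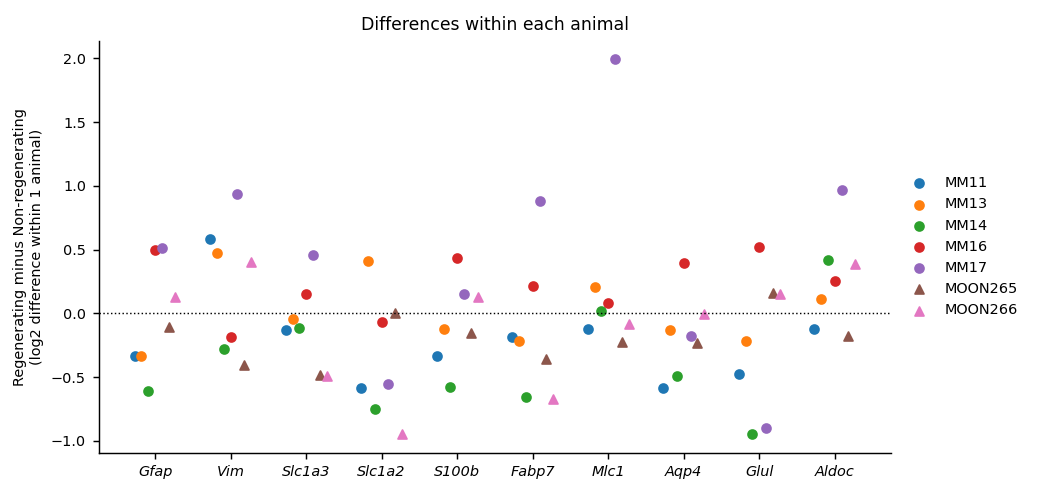
Regenerating minus non-regenerating log2 difference of each gene in each of the 7 animals, with circles for MM and triangles for MOON animals. Points lie on both sides of 0 for every gene, and MM17 stands above the others for Mlc1 (1.99).

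The name prefix of an animal, MM or MOON, went with differences in level over the array as a whole, not in these genes in particular. All traced animals were MM animals. The labels do not say what the prefix stands for. No brightest probe set of the 10 genes separated the 4 MOON arrays from the 10 MM arrays of axotomised animals, but 3 of the 15 tested probe sets did, all lower in MOON, where 14.6% of all tested probe sets were separated in that direction, and 0 were higher, where 5.34% of all were. They were the dimmer 2 of the 3 probe sets of Aqp4, with 25.5 to 70.1 in MOON and 221.5 to 594 in MM arrays and with 16.6 to 27.0 and 30.1 to 63.2, and the dimmer tested one of Glul, with 90.5 to 120.5 and 169 to 314. Whether the difference between regenerating and non-regenerating samples itself differed between MOON and MM animals was tested with limma's interaction term, which rests on 2 MOON animals. None of the 15 probe sets passed (adjusted p of 0.912 to 0.999), which does not show that the animals were alike. For Fabp7 it was -0.51 in MOON and 0.01 in MM animals (difference -0.52, SE 0.36), and for Slc1a3 -0.49 and 0.07 (difference -0.55, SE 0.28, unadjusted p = 0.0625).

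Other probe sets of the same gene gave other values. Slc1a2 had a second probe set, which gave 0.41 (SE 0.18, unadjusted p = 0.0396, adjusted p = 0.693 by limma) between regenerating and non-regenerating samples and was higher in 5 of 7 animals, opposite to the brighter one. For Aqp4, the dimmest of 3 probe sets gave -0.67 (SE 0.28) and -0.60 (SE 0.31) for regenerating and non-regenerating against traced samples, where the brightest gave 0.15 and 0.33. The second tested probe set of Slc1a3 gave -0.23 (SE 0.30) and -0.06 (SE 0.32), from group means of 34.6 to 41.9. The second tested one of Glul gave -0.50 (SE 0.31) and -0.37 (SE 0.30). None of these passed. Another probe set of Slc1a3 and another of Glul were too dim to be tested, with signals of 3.9 to 101.5 and of 3.1 to 52.8 over all arrays. Gfap, Vim, S100b, Fabp7, Mlc1 and Aldoc have 1 probe set each, so that no second reading bears on them.

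**Figure D4:**
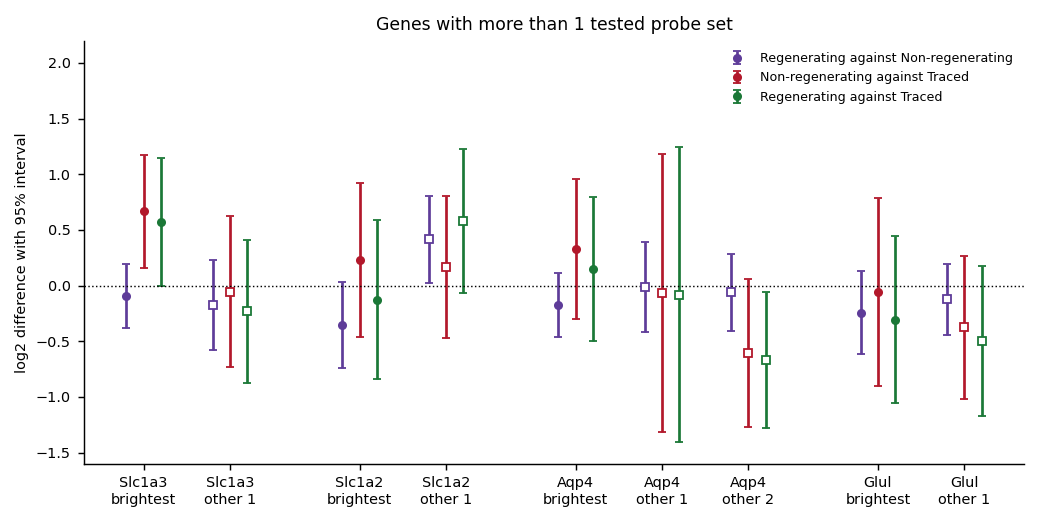
Log2 difference with its 95% interval for each tested probe set of Slc1a3, Slc1a2, Aqp4 and Glul in the 3 comparisons, with filled circles for the brightest probe set and open squares for the others. For Slc1a2 the probe sets lie on opposite sides of 0 between regenerating and non-regenerating samples (-0.36 and 0.41).

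Other astrocyte genes were set beside the 10 from 3 further lists. Of 25 other astrocyte genes, 17 were measured brightly enough to be tested, and 0 passed in any comparison by limma. Their medians were 0.35 in regenerating and 0.31 in non-regenerating against traced samples, and 0.05 between regenerating and non-regenerating samples. Against traced samples 13 and 15 of 17 were above 0, as were 40.8% and 38.8% of all probe sets. Cst3, which encodes the protease inhibitor cystatin C, had the smallest p among them in both comparisons with traced samples. Its means were 3181 ± 450 in regenerating and 3052 ± 715 in non-regenerating samples, against 1825 ± 760 in traced samples (SD, n = 7, 7 and 3), with differences of 0.89 (SE 0.26, adjusted p = 0.0769) and 0.80 (SE 0.31, adjusted p = 0.472). Apoe, the main lipid carrier of astrocytes and also a product of microglia, and Clu, which encodes clusterin, did not pass either, and were added here after their values were seen. Apoe differed by 1.49 (SE 0.52, adjusted p = 0.109) for regenerating and 1.07 (SE 0.47, adjusted p = 0.472) for non-regenerating against traced samples, and by 0.42 (SE 0.16, adjusted p = 0.678) between regenerating and non-regenerating samples. Clu differed by 1.08 (SE 0.44, adjusted p = 0.155) and 0.57 (SE 0.56, adjusted p = 0.690) against traced samples, and by 0.52 (SE 0.19, adjusted p = 0.678) between regenerating and non-regenerating samples, where Gjb6, an astrocyte gap junction protein, and Ndrg2 differed by -0.33 and -0.41. At the lower end, Mfge8, a bridge between dying cells and phagocytes, differed by -0.64 (SE 0.26) in regenerating against traced samples.

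Of 20 genes of the reactive state, 13 were tested and 0 passed in any comparison by limma, with medians of 0.148 and 0.135 for regenerating and non-regenerating against traced samples. Lcn2, Serpina3n, Osmr, Timp1, Socs3, Cebpd and Ptx3 had no probe set of their own or were too dim, so the list gives no reading of them. C3, the complement component, had 109 to 1055 (median 506) in regenerating and 119 to 1334 (median 249) in non-regenerating samples, against 53.8 to 83.8 in traced samples. It differed by 2.03 (SE 0.55, adjusted p = 0.0694) and 1.83 (SE 0.57, adjusted p = 0.472), without overlap. Psmb8, of the immunoproteasome, differed by 1.10 (SE 0.38) and 1.03 (SE 0.28). C3 and Psmb8 are also made by microglia and other immune cells. Cp differed by 1.01 (SE 0.36) and 0.82 (SE 0.34), and Cd44 by 0.46 (SE 0.42) and 0.84 (SE 0.34). Fgf2, a growth factor, was dim, with means of 39.9 and 40.0 against 73.0, and differed by -0.63 (SE 0.30) and -0.81 (SE 0.45). Bcl3 differed by -0.66 (SE 0.35) and -0.73 (SE 0.45). Between regenerating and non-regenerating samples, Lgals1, which encodes galectin-1, differed by 0.80 (SE 0.21, adjusted p = 0.540), Stat3 by 0.43 (SE 0.15) and Cd44 by -0.38 (SE 0.21).

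Of 12 radial glia and neural stem cell genes, 9 were tested and 0 passed in any comparison by limma, with medians of -0.105 and -0.004 for regenerating and non-regenerating against traced samples. Id1, an inhibitor of differentiation factors, differed by -0.79 (SE 0.29, adjusted p = 0.124) and -0.69 (SE 0.33, adjusted p = 0.472).

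Markers of other cells were read on the same arrays. The summed signal of 12 microglia and macrophage genes, 8 of them bright enough to be tested, was 6887 to 11783 in regenerating and 6824 to 10700 in non-regenerating samples, against 3729 to 4425 in traced samples, without overlap. All 8 were above 0 in both comparisons with traced samples, as were 40.8% and 38.8% of all probe sets, with medians of 1.145 and 1.115. By limma 2 were called in regenerating and 0 in non-regenerating against traced samples, where 0.215% and 0.0430% of all tested probe sets were. Itgam, Cx3cr1, Tyrobp and C1qb were dim. The summed signal of 11 astrocyte markers, 9 of them among the 10 genes, was 17151 to 27825 and 16234 to 28277, against 15893 to 21364. Ependymal sums (3 genes, 1 of them dim) were 196 to 388 and 186 to 333, against 259 to 434. Oligodendrocyte sums (9 genes) were 10452 to 18221 and 11371 to 20495, against 13751 to 18314, and endothelial sums (7 genes) were 3920 to 8355 and 3852 to 7884, against 4558 to 5629. Of 10 neuron markers, 2 were above 0 in regenerating and 2 in non-regenerating against traced samples, where 40.8% and 38.8% of all probe sets were. Their medians were -0.227 and -0.09, against -0.125 and -0.119 for all probe sets, and 0 were called by limma. The microglial sums, like Gfap and Fabp7, lay higher on all axotomised than on all traced arrays, and their part in those differences was not tested.

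**Figure D5:**
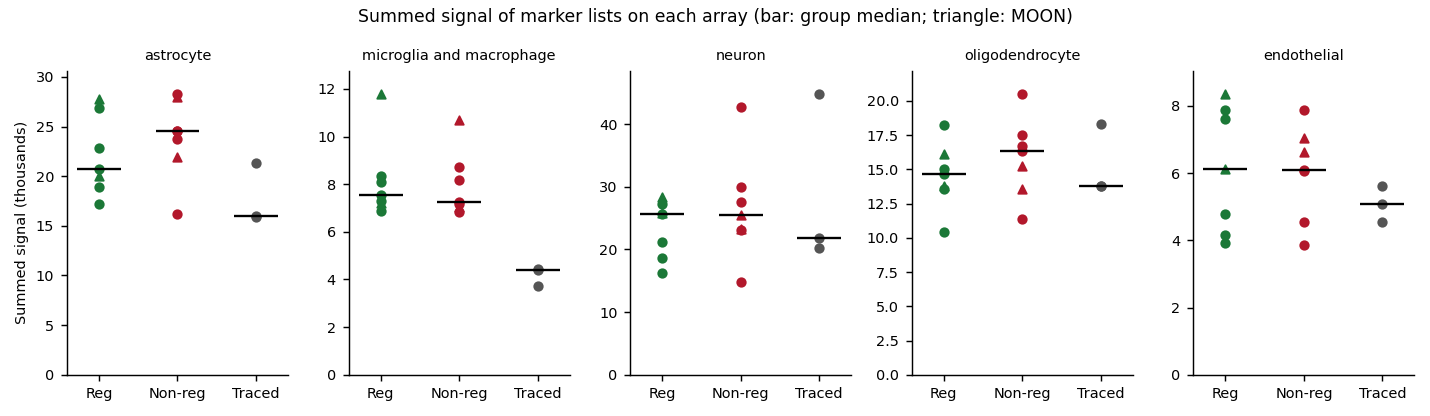
Summed signal, divided by 1000, of marker lists of 5 cell types on each array, with regenerating (Reg), non-regenerating (Non-reg) and traced samples from left to right. Points are arrays, triangles MOON animals and bars group medians, and the microglia and macrophage sums of the traced samples (3729 to 4425) lie below all others.

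Genes whose pattern over the 17 arrays was most like that of Gfap were found by Pearson's r of log2 signal over 10430 other named genes. Each gene was ranked at its tested probe set with the highest r, which need not be the brightest. For Slc1a2 it was the dimmer one (0.427), where the brightest had 0.029. They were Npc2, a lysosomal cholesterol carrier (r = 0.954), Psme4, a proteasome activator (0.919), Cxcl16, a chemokine (0.905), Chd1, a chromatin remodeller (0.898), and B2m, the light chain of MHC class I (0.897). Npc2 had 2722 to 4397 in regenerating and 2539 to 4027 in non-regenerating samples, against 1089 to 1903 in traced samples, the same separation as Gfap. Since Npc2 was picked for its likeness to Gfap on these same arrays, that separation is no separate evidence. Among the other members, Fabp7 came in place 9 (r = 0.877) and S100b in place 36 (0.817), while Aldoc came in place 2551 (0.266) and Glul in place 5039 (-0.024). Without the 2 arrays that stood apart, r of Gfap was 0.610 with Glul, 0.828 with Fabp7 and 0.698 with S100b. For Fabp7 the 5 most alike were Gfap (0.877), Lyz2, a lysozyme of macrophages (0.870), Chd1 (0.869), Mpeg1, a pore-forming protein of macrophages (0.865), and Schip1 (0.854).

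Among the 10 genes themselves, 3 sets of genes followed each other over all 17 arrays. Gfap, Fabp7 and S100b followed each other, with r of 0.698 to 0.877, and Aqp4 followed Glul, with r = 0.805. Vim came close to the first set, with 0.651 with Gfap and 0.680 with Fabp7, but had 0.457 with S100b. Slc1a3, Mlc1 and Aldoc formed the other set, with r of 0.722 to 0.751, which ran against Glul, at -0.472 to -0.766. Non-regenerating MM17 and traced MM15, the arrays that stood apart, held the highest Glul and the lowest Mlc1 signals. Over the 15 arrays without them, a choice made after the values were seen, Mlc1 against Glul was -0.342, Slc1a3 against Glul -0.230 and Aldoc against Glul -0.560, while Slc1a3, Mlc1 and Aldoc had 0.563 to 0.860 with each other, Gfap, Fabp7 and S100b 0.575 to 0.828, and Aqp4 with Glul 0.867. Over the same 15 arrays Gfap, Fabp7 and S100b also had 0.610 to 0.809 with Aqp4 and Glul, so that these sets were not separate there. All these values describe 17 arrays or fewer, 14 of the 17 in pairs from 7 animals, that share the difference between axotomised and traced samples. They therefore carry no p.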

How the data were processed

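Gene expression was measured on 17 Affymetrix arrays, 1 per sample. The authors deposited linear signal intensities for each probe set, which GCOS (Affymetrix GeneChip Operating Software) had computed, per the submitters' processing notes, with no version or settings given in the sources used here. Here 16 was added to each deposited intensity before log2. After 57 control and 12417 dim probe sets were removed (mean log2 signal up to the 40th percentile), 18625 were fitted in limma 3.58.1 (lmFit, eBayes with trend) under R 4.3.3. A Benjamini-Hochberg adjusted p under 0.05 was the threshold. Dimness was judged on all 17 arrays, and 0 pairs of arrays were identical.

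Groups came from the sample titles. Regenerating and non-regenerating samples were paired by the animal in the titles and fitted with the animal as a block, and the deviations of an animal's 2 arrays from their group means correlated with r = 0.345 to 0.709. The comparisons with traced samples were fitted between animals. Nothing beyond the animal names marks separate preparations, so p-values measure the spread between these samples.

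Gene symbols came from the platform annotation, and all 10 genes matched RefSeq by Entrez number and symbol. Named genes were the 10 members, up to 3 genes per direction and comparison of the further lists, and the 5 genes most like Gfap and Fabp7. Apoe, and Clu against traced samples, were added after their values were seen. Cp, and Cd44 against traced samples, are named outside that rule as well. Second probe sets were given for every member that has them. The members and lists were chosen with earlier results of these data known. Fits were tested on simulated data. Alternatives covered scaling, offset, filter, trend, array weights, block, 1 fit over all arrays, name prefix, probe set choice and leaving out arrays. Python 3.11.15 and matplotlib 3.10.9 drew the figures.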

Additional observations from a re-analysis of the deposited data

Results flagged for a closer look

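Of 30 sets of 7 values checked for a sample far from the others, 3 held one, where chance gives about 1 in 20. The sets are not independent, since differences within animals are made from the same signals, and both Mlc1 entries below rest on 1 signal. Fabp7 had a signal of 3036 in non-regenerating MOON266, and the other non-regenerating samples had 904 to 1449. Mlc1 had a signal of 131 in non-regenerating MM17, and the others had 546 to 1202. The difference of Mlc1 between regenerating and non-regenerating samples was therefore 1.99 in MM17, and the other animals had -0.23 to 0.21. Non-regenerating MM17 is 1 of the 2 arrays that stood apart as a whole, and the part of that in the Mlc1 values was not tested.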

How the results depend on the processing

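All numbers are log2 differences or counts over the 10 genes. Within animals, 0 genes passed under any of 21 alternatives and the median ran from -0.142 to 0.024. Without the animal as a replicate block it was -0.08, and 0 of all probe sets were called, against 3 with the block, which changed no other call of the genes. Leaving out 1 animal gave -0.13 to 0.06 for Gfap, -0.15 to 0.02 for S100b and -0.02 to 0.35 for Mlc1. Signs turned under quantile scaling for Gfap (0.10) and S100b (0.07), with probe sets averaged per gene for Slc1a2 (0.03), in MM animals alone for Slc1a3 (0.07) and Fabp7 (0.01), in MOON animals alone for Gfap (0.01), Vim (0.00), Mlc1 (-0.16) and Glul (0.15), and without the 2 arrays that stood apart for Mlc1 (-0.02). Within animals, leaving out those arrays is the same fit as leaving out animal MM17.

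For non-regenerating against traced samples, genes past the threshold numbered 1 under quantile scaling, 4 with array weights and 1 in 1 fit over all arrays. Over all probe sets 17, 2440 and 23 were called in these fits, against 8 as reported, where 18625 were tested. When 1 array was left out, 0 to 1 genes passed. The median was 0.964 with arrays centred on their medians, which moved that of all probe sets to 0.24, and 0.425 with probe sets averaged. Leaving out 1 array gave -0.38 to 0.44 for Glul and -0.04 to 0.33 for Aldoc. Signs turned with centring for Glul (0.30), with array weights for Slc1a2 (-0.01) and Glul (0.33), with averaging for Aqp4 (-0.11), and without the 2 arrays for Glul (0.27).

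For regenerating against traced samples, 2 genes passed with centring, 2 with an offset of 64 and 5 with array weights. With array weights 3131 of all probe sets were called, against 40 as reported. Without the 2 arrays, of which only traced MM15 enters this comparison, 0 genes passed, and 0 to 2 when 1 array was left out. The median was 0.914 with centring, which moved that of all probe sets to 0.264. Leaving out 1 array gave -0.25 to 0.03 for Slc1a2, -0.01 to 0.37 for Aqp4 and -0.63 to 0.20 for Glul. Signs turned for Slc1a2 under quantile scaling (0.25), centring (0.26) and averaging (0.23), for Aqp4 with averaging (-0.20), in MM animals alone (-0.02) and with the prefix as a term (-0.02), and for Glul with centring (0.08), array weights (0.04) and without the 2 arrays (0.20). Relative to all probe sets the medians were 0.65 for regenerating and 0.724 for non-regenerating against traced samples, which centring cannot change, and 0.473 and 0.559 under quantile scaling. Calls over all probe sets ran from 2 to 2440 (8 as reported) and from 1 to 3131 (40 as reported), both highest with array weights. The causes were not tested. A filter at the 70th percentile left no value for Slc1a2.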
